A study of Mus musculus with 3 samples.

Results

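Cytosolic ribosomal proteins were taken as every gene whose symbol follows the Rpl, Rps, Rplp or Rpsa naming and that has at least 1 annotated protein-coding transcript. The pattern found 87 symbols, of which Rps4l, Rps12l1, Rpl32l and Rpl6l had no protein-coding transcript, so that 83 of 55536 gene entries were members. They were 51 large-subunit and 31 small-subunit genes plus Rps6kl1, a kinase-like gene that is no ribosomal protein and was caught by its symbol alone. The pattern leaves out some genes, such as Fau, Rps3a1 and Rpl36al, which do encode ribosomal proteins. The measurements were polyadenylated RNA sequencing of primary macrophages grown from bone marrow of C57BL/6J mice, in 3 libraries that form a single group. All 3 had been stimulated for 480 min at 100 ng/mL. Descriptions call the stimulus Lipid A, the lipid anchor of bacterial lipopolysaccharide, whereas treatment fields call it lipoprotein A. No unstimulated cells were analysed here, so every value below is a level in stimulated cells or a spread between libraries, never a response. Age and sex were not recorded, and the 3 biosamples carry the same donor entry. Whether the libraries come from separate animals, and how much of their spread is technical, cannot be told from these entries.

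The ribosome is built from a small subunit, which reads the mRNA, and a large subunit, which joins amino acids. Nearly every ribosomal protein is present once per ribosome, so the proteins are needed in like amounts. Their mRNAs are among the most abundant in growing cells. They begin at the 5′ end with a cytosine followed by a run of pyrimidines, the terminal oligopyrimidine or TOP motif. Through it, mTOR signalling and the mRNA-binding protein Larp1 set how strongly they are translated, so that mRNA level and protein output need not move together. Each mouse ribosomal protein gene also has many processed pseudogenes, which are reverse-transcribed copies of its mRNA scattered over the genome, and reads from short and near-identical sequences are hard to place.

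Start sites are shown first, because the pyrimidine run is the sequence feature that this gene group is known for. RefSeq promoters on build GRCm38.p6, which hold 250 bases before and 50 bases after each annotated start, matched 63 members by symbol. Of these, 59 belonged to the 79 members that remain once Rpl3l, Rpl10l, Rpl39l and Rps6kl1 are set aside, a set called the core below. The 8 sequences printed here are those of the 8 most abundant core members that have a run of 8 or more pyrimidines across the first transcribed base. Each window runs from 25 bases before the start to 25 bases after it, on the gene's own strand, and capitals mark the pyrimidine run.
Rps24, chr14:24490653-24490702, plus strand: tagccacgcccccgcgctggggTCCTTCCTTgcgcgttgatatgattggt
Rps27, chr3:90213624-90213673, minus strand: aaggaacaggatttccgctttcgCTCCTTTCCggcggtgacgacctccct
Rps9, chr7:3704016-3704065, plus strand: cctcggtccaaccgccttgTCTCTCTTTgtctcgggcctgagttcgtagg
Rpl38, chr11:114668555-114668604, plus strand: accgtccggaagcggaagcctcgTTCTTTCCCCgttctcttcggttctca
Rps10, chr17:27635220-27635269, minus strand: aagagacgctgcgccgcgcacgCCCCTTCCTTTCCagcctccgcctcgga
Rps15a, chr7:118116123-118116172, minus strand: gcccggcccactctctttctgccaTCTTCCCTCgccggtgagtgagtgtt
Rps18, chr17:33955641-33955690, minus strand: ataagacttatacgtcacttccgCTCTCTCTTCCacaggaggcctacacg
Rpl7a, chr2:26910782-26910831, plus strand: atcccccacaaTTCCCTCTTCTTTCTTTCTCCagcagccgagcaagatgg

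A run of 8 or more pyrimidines spanned the annotated start in 15 of 59 core promoters, or 25.4%, against 3.74% of 7372 promoters of other detected protein-coding genes and 3.81% of all 27025 promoters. The run was counted on both sides of the start, so that it need not be a TOP motif. In Rps24, Rps9 and Rpl7a, for example, the first transcribed base is a thymine. A pyrimidine of any kind stood at the start in 28 of the 59, or 47.5%, against 24.0% of the other detected protein-coding genes. A cytosine, which opens the TOP motif, stood there in 20 of the 59, or 33.9%, against 16.2% of all 27025 promoters. The first start listed for a symbol was used, and a window without a run says only that no such run is in it. Searched on both strands of the 300-base promoters, the letters CTTTCC occurred in 47.5% of core promoters and in 26.9% of other detected protein-coding genes. The ETS-type motif CCGGAAG, bound by GABP, occurred in 39.0% against 21.4%. The YY1 motif AAGATGG occurred in 15.3% against 8.29%. The GC box GGGCGG, bound by Sp1, occurred in 61.0% against 65.9%, and TATAAA in 10.2% against 6.59%. A second pyrimidine string, CTTTTC, occurred in 27.1% of core promoters against 19.0%. Over all 27025 promoters the shares were 26.3% for CTTTCC, 9.12% for CCGGAAG, 6.48% for AAGATGG, 35.9% for GGGCGG, 14.2% for TATAAA and 21.8% for CTTTTC. Motifs were searched one by one, so their matches may overlap each other, and both pyrimidine strings may be pieces of the run at the start. Core members with the pyrimidine run had a median level of 573 TPM, against 412 TPM for the 44 others in the table. The 15 with the run ranged widely, from 191 to 2956 TPM, and whether level goes with the run was not tested. TPM is a level corrected for transcript length and scaled to the same total in each library.

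Of the 83 members, 79 were detected at 1 TPM or more in every library, against 42.0% of protein-coding genes and 17.9% of all gene entries. The 4 members that were not detected were Rpl3l, Rpl10l, Rpl39l and Rps6kl1. Rpl3l, the striated-muscle paralog of Rpl3, and Rpl10l, the testis paralog of Rpl10, had no read in any library of the first quantification; a count of 0 allows levels of up to 0.232 TPM for Rpl3l and 0.226 TPM for Rpl10l in the library where that limit is highest. Rpl39l, a germ-cell paralog of Rpl39, had 0.840, 1.36 and 0.810 TPM in replicates 1, 2 and 3. All 79 core members exceeded 10 TPM in every library and 76 exceeded 100 TPM; the 3 below were Rpl7l1, Rpl5 and Rpl22l1. The macrophage label was checked on a list of 7 markers, among them Adgre1, Csf1r, Cd68 and Lyz2, and 7 of 7 were detected, while T-cell, B-cell, NK-cell, erythroid and fibroblast markers summed to under 1 TPM for each cell type in each library. The 5 neutrophil markers summed to 22.9, 419.6 and 21.4 TPM in replicates 1, 2 and 3, so replicate 2 stood apart. In bulk RNA, fewer cells of a type and less RNA per cell cannot be told apart.

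Members held 46509, 52014 and 51545 TPM in replicates 1, 2 and 3, a mean of 50023 ± 3052 TPM (SD, n = 3), or 5.002 ± 0.305% of each library's TPM. In reads the share was smaller, since TPM divides by length and these mRNAs are short. Of 26589042, 34344922 and 48356527 expected counts, reads assigned to genes by a model, in replicates 1, 2 and 3, members took 1.21% (95% Wilson interval 1.20 to 1.21%), 1.33% (1.32 to 1.33%) and 1.26% (1.26 to 1.26%), intervals that cover counting error only. The median core member had 533 TPM, with quartiles at 336 and 843 TPM. The median of 9248 detected protein-coding genes was 14.9 TPM, and all 79 core members lay above it. Members made up 5 of the 100 most abundant protein-coding genes, 62 of the 500 and 75 of the 1000.

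**Figure D1:**
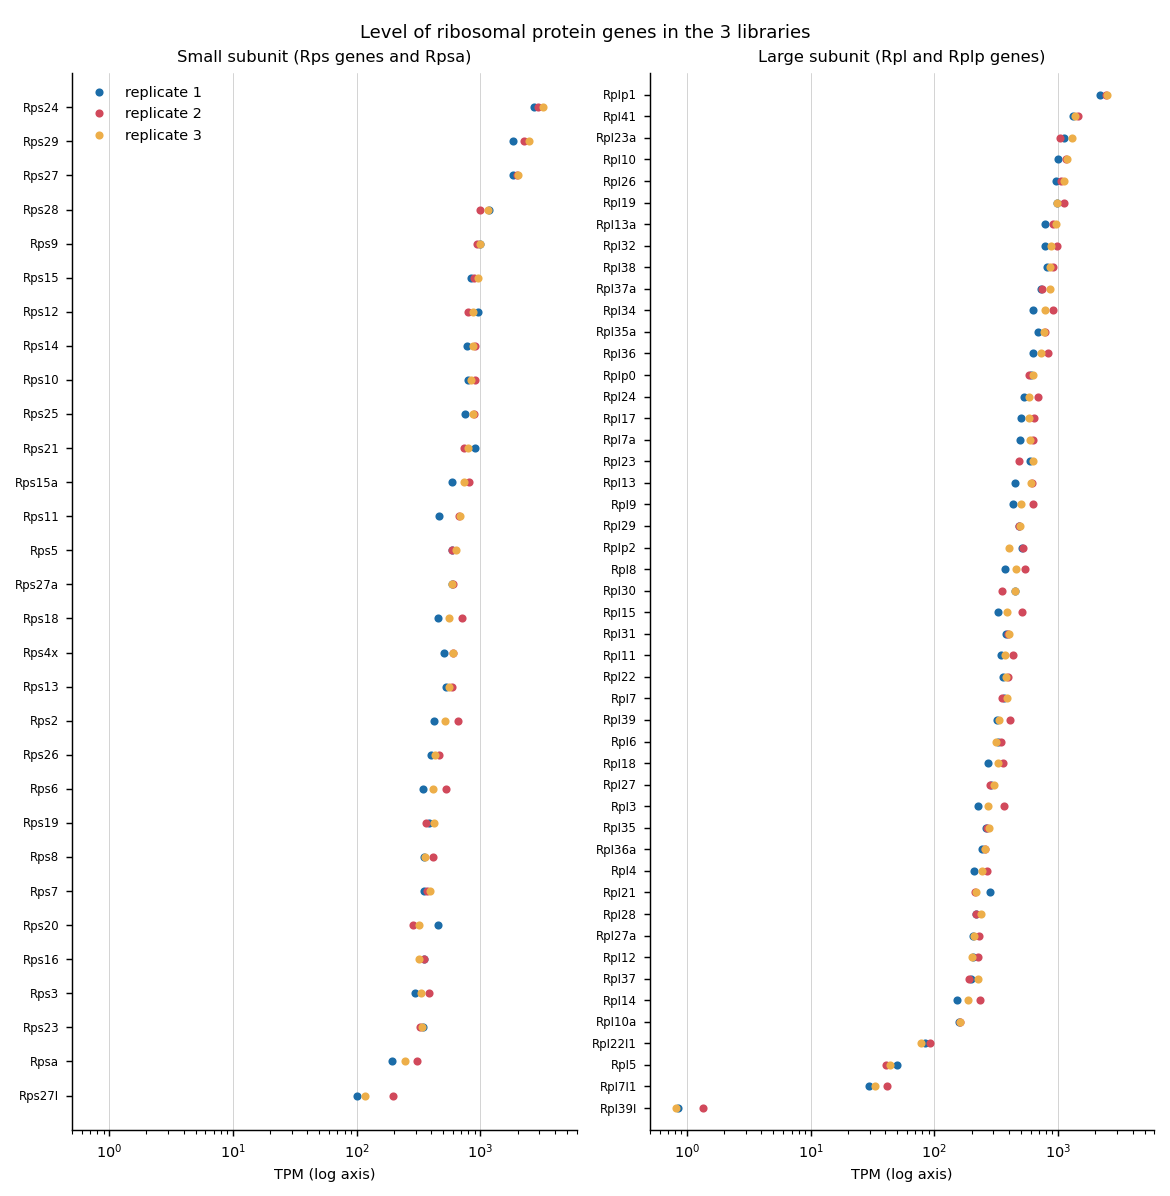
TPM (log axis) of ribosomal protein genes in replicates 1, 2 and 3, with small-subunit genes in the left panel and large-subunit genes in the right panel, ordered by mean; Rpl3l and Rpl10l, at 0, and a few genes not reported here are not drawn. Most genes lie between 100 and 1000 TPM, Rps24 and Rplp1 lead the panels, and Rpl39l stands alone near 1 TPM.

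Among small-subunit genes, Rps24 led with 2731, 2942 and 3194 TPM in replicates 1, 2 and 3; it is one of the genes mutated in human Diamond-Blackfan anaemia. Rps29 followed with 1829, 2255 and 2457 TPM and Rps27 with 1843, 1966 and 2011 TPM, both zinc-binding proteins. Rps28 had 1172, 995 and 1149 TPM. All 4 lay above the subunit's median of 596 ± 67.1 TPM (SD, n = 3) in each library. Rps28 overlapped with the next gene, Rps9, which had 989.8, 935.5 and 1000.3 TPM, while Rps24 did not overlap with any other member. At the low end of the canonical small-subunit genes were Rpsa, the laminin-receptor protein, with 194, 307 and 248 TPM, and Rps23, a decoding-centre protein, with 341, 323 and 334 TPM. More TPM fell on a near-identical copy, described below, than on Rps23, and with its copies Rps23 had 1017 ± 190.4 TPM (SD, n = 3).

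Among large-subunit genes, Rplp1 was the highest, with 2184, 2440 and 2463 TPM. Rpl41, which encodes a very small basic peptide, had 1311, 1436 and 1373 TPM. Rpl23a, which lies at the exit of the nascent chain, had 1114, 1035 and 1284 TPM, and Rpl10, which joins the large subunit late in assembly, had 1007, 1164 and 1180.1 TPM. Rpl26 had 959.7, 1060.4 and 1118 TPM, and Rpl19 had 988, 1113 and 982 TPM. The lowest canonical large-subunit gene was Rpl5, a 5S ribosomal RNA-binding protein, with 50.2, 40.8 and 43.4 TPM, but its place rests on reads split with a copy, with which it had 292 ± 33.7 TPM (SD, n = 3). Above it came Rpl10a, with 158, 162 and 159.8 TPM, Rpl14, with 152, 233 and 187 TPM, and Rpl37, with 197, 189.6 and 224 TPM. The next were Rpl12, Rpl27a and Rpl28, with means of 211, 215 and 224 TPM. With copies, Rpl12 had 472 ± 63.3 TPM and Rpl27a 684 ± 142 TPM (SD, n = 3 each). Neighbours in this order, such as Rpl10a and Rpl14, overlapped between libraries.

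Across the core, log2 levels had an SD between genes of 1.12 ± 0.03 (SD over 3 libraries), and the 90th percentile, 1058 TPM, was 4.95 times the 10th percentile, 214 TPM. Shorter transcripts tended to have higher levels. Across the 79 core genes, level and length of the main coding transcript had Pearson r = -0.62 on log2 scales and Spearman rho = -0.65, a description in which all points share the same libraries and TPM itself divides by length. The main coding transcript does not always carry most of a gene's TPM. Rps20 entered with 3706 bases, although most of its TPM fell on a shorter transcript, described below. Levels here are also without copies. In replicate 2, 28 core members had an effective length, the number of start positions a fragment can take, under 300 bases. They had a median of 862 TPM, against 389 TPM for the other 51, and held 56.0% of the members' TPM. In Rps27 the effective length was 104, 85.8 and 89.3 bases in replicates 1, 2 and 3, it ranked 4th of the members in TPM, and its 3341, 3981 and 5765 expected counts ranked it 55th. Rplp0 stood the other way round, at rank 29 in TPM and rank 2 in counts, with 11521, 14544 and 21461 expected counts. Rps24 ranked 1st on both scales.

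The small-subunit median exceeded the large-subunit median, 596 ± 67.1 against 438 ± 41.1 TPM (SD, n = 3), and the difference of median log2 levels was 0.37, 0.44 and 0.52 in replicates 1, 2 and 3. It was positive in 3 of 3 libraries, with a mean of 0.44 ± 0.07. Once the TPM of near-identical copies, described below, was added to each member (a choice made with the data known), the difference dropped to 0.19 ± 0.04. In the second deposited quantification it was 0.23 ± 0.13. Summed levels were 23629 ± 1337 TPM over 31 small-subunit genes and 26393 ± 1735 TPM over 48 large-subunit genes.

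The stalk, which recruits elongation factors to the ribosome, is built from Rplp0 and pairs of Rplp1 and Rplp2 on a base that Rpl12 helps to form. Levels of its genes differed widely: Rplp1 had 2363 ± 155 TPM, Rplp0 604 ± 24.1 TPM, Rplp2 477 ± 66.0 TPM and Rpl12 211 ± 11.2 TPM (SD, n = 3 each). Their ranges over libraries did not overlap in the first quantification without copies. With copies Rpl12 had 400, 516 and 501 TPM, which overlapped with Rplp2, and in the second quantification Rplp0 and Rplp2 overlapped. Rplp1 and Rplp2, whose proteins pair with each other, were far apart in mRNA, with Rplp2 at 508, 523 and 402 TPM.

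Ribosomal proteins with roles described outside the ribosome covered much of the range. Rps27a, which encodes a fusion of ubiquitin and a small-subunit protein, had 594, 603 and 593 TPM. Fau, a fusion of a ubiquitin-like protein with eS30 that the symbol pattern leaves out, had 796, 784 and 745 TPM. Rpl13a, part of the interferon-gamma-activated GAIT complex that represses inflammatory mRNAs in human monocytic cells, had 786, 915 and 955 TPM. Rps3, which is also known as a partner of NF-kappaB subunits, had 297, 384 and 334 TPM. Rps6, the substrate of the S6 kinases, had 347, 523 and 412 TPM. Rps19, the most often mutated gene in Diamond-Blackfan anaemia, had 384, 363 and 421 TPM. Rpl11, which together with Rpl5 binds Mdm2 when ribosome assembly fails, had 344, 435 and 375 TPM. Rpl38, required for translation of Hox mRNAs in mouse embryos, had 819, 916 and 855 TPM, and Rpl22, known for its part in T-cell development, had 357, 390 and 377 TPM. Rps3a1 and Rack1, also outside the pattern, had 486 ± 28.1 and 258 ± 29.6 TPM (SD, n = 3 each).

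Paralogs were expressed below their canonical partner in all 8 pairs measured, with the sign the same in 3 of 3 libraries and a mean log2 ratio beyond 2 SD in each. Rpl22l1 had 84.6, 92.2 and 77.6 TPM, which was 18.4 ± 1.19% of its pair with Rpl22 (SD, n = 3). Rpl7l1, a nucleolar relative of Rpl7, had 29.7, 41.1 and 33.2 TPM, or 8.60 ± 1.56% of its pair. Rps27l, a p53 target, had 102, 196 and 116 TPM, or 6.58 ± 2.15% of its pair with Rps27. Rpl36al, outside the pattern, came closest to its partner, with 168.5, 219.7 and 212 TPM or 44.1 ± 2.87% of the pair with Rpl36a, which itself has a copy of high level. Rpl39l made up 0.278 ± 0.0463% of its pair and Rps4l 0.601 ± 0.153% of its pair with Rps4x, while Rpl3l and Rpl10l were at 0 in the first quantification. Rpl26l1 was not analysed here. The log2 ratio of Rpl36al to Rpl36a was -0.34 ± 0.17, and without replicate 3 this pair count dropped to 7 of 8.

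Paralogs of this kind can be told from their partners by sequence. Over all aligned columns, gaps included, Rps27l matched Rps27 in 194 of 255 bases (76.1%), Rpl22l1 matched Rpl22 in 68.2%, Rpl7l1 matched Rpl7 in 54.0%, Rpl10l matched Rpl10 in 78.9%, and Rpl3l matched Rpl3 in 43.3%. A gap counts as a difference, so transcript models of unequal length lower the share. The models used had 723 coding bases in Rpl3l against 1212 in Rpl3, and 645 in Rpl10l against 603 in Rpl10. Of these 6 pairs, the only ones aligned, Rpl39l was the closest by this measure, with 133 of 156 bases the same as in Rpl39 (85.3%). Its lead over Rpl10l, with 509 of 645 columns the same, rests on the transcript models chosen. The first 60 coding bases of the Rps27 and Rpl39 pairs, the closest of the 6 in which both genes had reads, are printed, from the GENCODE M21 transcripts, with capitals where the genes of a pair differ; the coordinates are those of the whole gene on GRCm38.
Rps27l, chr9:66946086-66949516, plus strand: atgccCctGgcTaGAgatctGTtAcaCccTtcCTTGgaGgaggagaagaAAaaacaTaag
Rps27, chr3:90212522-90213651, minus strand: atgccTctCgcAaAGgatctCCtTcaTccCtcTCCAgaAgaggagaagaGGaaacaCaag
Rpl39l, chr16:10170226-10174911, plus strand: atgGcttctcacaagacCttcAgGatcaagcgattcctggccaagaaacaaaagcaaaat
Rpl39, chrX:37082520-37085402, minus strand: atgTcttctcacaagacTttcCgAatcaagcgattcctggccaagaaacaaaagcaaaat
In these stretches the genes differ at 18 bases in the Rps27 pair and at 4 bases in the Rpl39 pair.

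Processed copies are another matter. A gene was counted as a near-identical copy of a member when at least 50% of the 50-base windows of one of its transcripts also occur in the member's coding transcripts, with each copy given to 1 member, a rule chosen after the data were seen. There were 201 such copies, 96 of them at 1 TPM or more on average, and 66 members had at least 1. In 44 members, 50% or more of the windows of the main coding transcript were found in another gene. Copies held 6441, 7789 and 7017 TPM in replicates 1, 2 and 3, or 12.4 ± 0.556% of the TPM of members and copies together (SD, n = 3). In 7 members more TPM fell on copies than on the member. Rpl5 kept only 15.6 ± 3.44% of the sum, with 44.8 ± 4.84 TPM on Rpl5 and 247 ± 38.3 TPM on its copy Gm15500. Rpl27a kept 32.0 ± 5.08%, with 469 ± 129 TPM on Gm7536. Rps23 kept 33.7 ± 7.87%, with 683 ± 198 TPM on Rps23-ps1. Rpl35 kept 39.2%, Rpl31 40.5%, Rpl27 43.0% and Rpl12 45.2%. The largest copies by level were Gm10076, annotated as a lincRNA, with 897, 1575 and 1425 TPM beside Rpl41, and Gm10443 with 637, 1133 and 1079 TPM beside Rps28. Gm10443 holds only 161 of the 50-base windows, and Gm14303, a copy of Rps29, holds 122. Both are shorter than the average fragment, and at so short an effective length few reads can give a high TPM. Such values enter the sums and shares with copies, and read counts of copies are not given here. The tables cannot say how much of this RNA was transcribed at the copies, because identical reads are divided by a model.

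**Figure D2:**
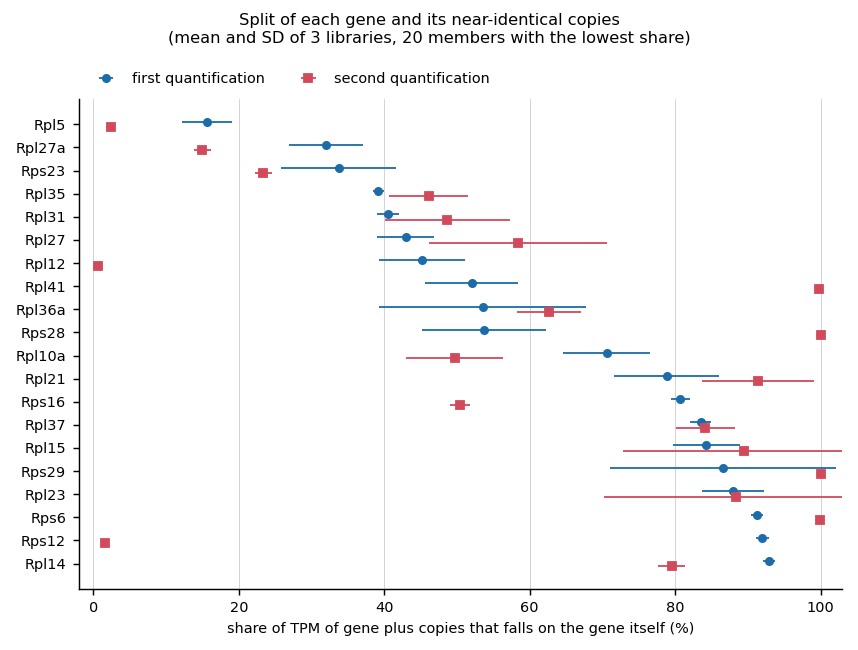
Share (%) of the TPM of each gene plus its near-identical copies that falls on the gene itself, as mean and SD of 3 libraries, for the 20 members with the lowest share; circles give the first, alignment-based quantification and squares the second. Rpl5 kept 15.6% and 2.40%, and for Rps12 and Rpl12 the circles and squares lie far apart.

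The clearest cases were copies that contain the whole coding sequence of the member's main coding transcript, the coding model with the most TPM. Rps12-ps3 on chromosome 19, Gm10275 on chromosome 10, Gm15500 on chromosome 7 and Rpl10-ps3 on chromosome 9 matched every coding base of that transcript in Rps12 (399 bases), Rpl12 (498 bases), Rpl5 (894 bases) and Rpl10 (603 bases). The Rpl10 model may be incomplete, since its paralog Rpl10l has 645 coding bases. Gm2000 differed from Rpl35 at 1 of 372 coding bases. The first 60 coding bases of Rps12 and Rpl5 and of their copies are printed because no letter differs, which leaves all of them in lower case.
Rps12, chr10:23785183-23787275, minus strand: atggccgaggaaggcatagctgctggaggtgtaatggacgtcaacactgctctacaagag
Rps12-ps3, chr19:59322290-59322783, plus strand: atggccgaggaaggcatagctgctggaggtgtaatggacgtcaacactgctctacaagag
Rpl5, chr5:107900502-107909005, plus strand: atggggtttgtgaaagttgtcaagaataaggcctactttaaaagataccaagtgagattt
Gm15500, chr7:114705217-114706235, minus strand: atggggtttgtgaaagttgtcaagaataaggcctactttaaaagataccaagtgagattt

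Each library was deposited in 2 quantifications, the first from a transcriptome alignment and the second, alignment-free, from the reads directly. Of the 80 members with a mean of 1 TPM or more, 5 differed 2-fold or more between them, a share close to the 4.87% of all 10610 genes at that level. All 5 were lower in the second, which 3.62% of those genes were by 2-fold or more. Rps12, a small-subunit protein of the head, had 873 ± 80.8 TPM in the first and 13.4 ± 3.47 TPM in the second, a log2 difference of -6.04 ± 0.25 (SD, n = 3); its identical copy Rps12-ps3 had 34.2 ± 22.1 TPM in the first and 848 ± 48.8 TPM in the second. Rpl12 had 211 ± 11.2 and 4.03 ± 0.692 TPM, a log2 difference of -5.69 ± 0.16, while Gm10275 had 239 ± 66.8 and 582 ± 119 TPM. Rpl5 had 44.8 ± 4.84 and 5.77 ± 2.06 TPM. Rpl10 had 1117 ± 95.8 and 521 ± 163 TPM, with 74.3 ± 10.5 and 349 ± 65.6 TPM on Rpl10-ps3. The remaining gene, Rps15a, had 710.2 ± 112 and 305 ± 27.6 TPM and no copy of comparable level. Its main coding transcript is annotated with only 250 bases, and the part of this short length in the gap was not tested. The next furthest were Rpl27a, Rpl10a and Rps16, with log2 differences of -0.97, -0.89 and -0.87.

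**Figure D3:**
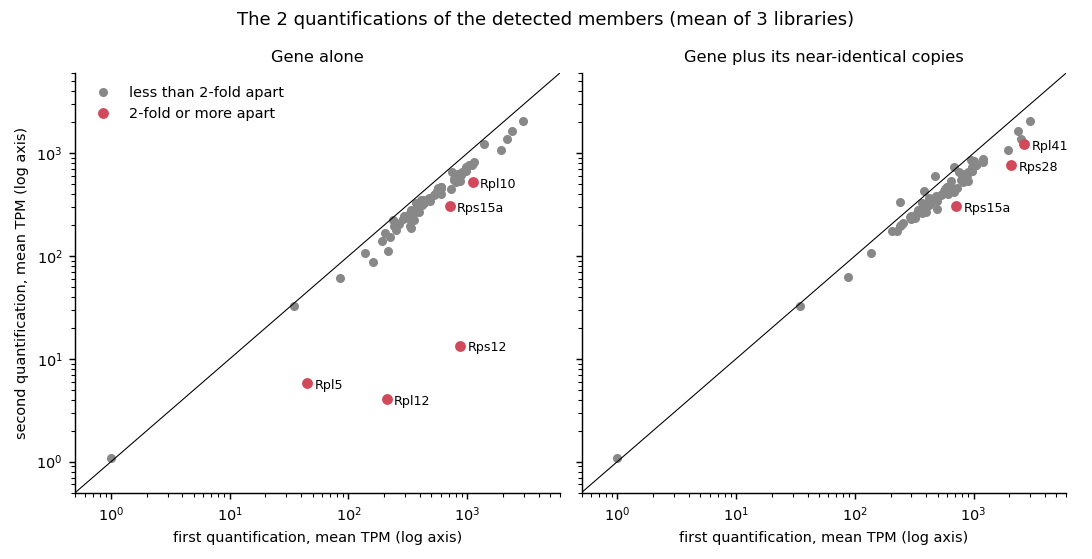
Mean TPM over 3 libraries in the first (x) and second (y) quantification, both on log axes, for the members with a mean of 1 TPM or more; the left panel has the gene alone, the right panel the gene plus its near-identical copies, and the line marks equal values. Rps12, Rpl12 and Rpl5 lie far below the line alone and close to it with their copies, where Rpl41 and Rps28 move away from it.

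Adding the copies brought Rps12 to 948 ± 81.3 TPM in the first and 861 ± 52.3 TPM in the second quantification, and Rpl5 to 292 ± 33.7 and 240 ± 51.7 TPM. Rpl5 then no longer had the lowest canonical level; Rpl12 with copies had 472 ± 63.3 and 607 ± 109 TPM. Across the 79 core genes Pearson r between the quantifications on log2 scales was 0.79 for the genes alone and 0.97 with copies, a description over genes that share reads and libraries. With copies, 3 members were 2-fold or more apart. These were Rps15a again, and Rpl41 and Rps28, whose copies Gm10076 and Gm10443 had 1299 ± 356 and 950 ± 272 TPM in the first quantification but 1.82 ± 1.49 TPM and 0 in the second. The Rps29 copy Gm14303 was likewise listed at 0 in the second quantification. In the first it had 829, 157 and 64.3 TPM, against 1829, 2255 and 2457 TPM for Rps29, so that the library lowest in Rps29 was the highest in its copy, and the sum was 2531 ± 123.1 TPM. Levels of members were lower in the second quantification in general, with a median log2 difference of -0.45, against -0.23 over all genes of 1 TPM or more.

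Most members drew their TPM from protein-coding transcripts. The median share on such transcripts was 99.5% over 79 detected members and 96.6% over 9239 detected protein-coding genes. It was under 90% in 9 members, against 32.7% of detected protein-coding genes, and under 50% in 4 of the 79 members, against 6.01%. Those 4 were Rps20, Rps16, Rpsa and Rpl5. Rps20, which encodes a head protein of the small subunit, had 13.0 ± 1.82% on coding transcripts (SD, n = 3), and 86.4 ± 1.90% on Rps20-201, a transcript of 582 bases that is annotated as intron-retaining; its coding transcript, Rps20-203, is annotated with 3706 bases. Rps16 had 20.5, 19.4 and 18.3% on its coding transcript, and 51.5% and 29.1% on Rps16-203 and Rps16-202, both annotated as intron-retaining. Rpsa had 39.9, 31.4 and 33.4% on coding transcripts, with 64.5 ± 4.28% on Rpsa-206, annotated as a target of nonsense-mediated decay. Rpl5 had 35.6 ± 3.54%, and 56.4 ± 5.88% on Rpl5-202, annotated as intron-retaining. Rpl13a, with 58.5 ± 4.14% on coding transcripts, also had 40.2% on transcripts annotated as targets of that decay. Rpl35 had 78.1 ± 4.83% and Rps19 83.9 ± 9.14%. The class is the annotation's name for a transcript model; whether an intron was in fact retained was not tested here.

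**Figure D4:**
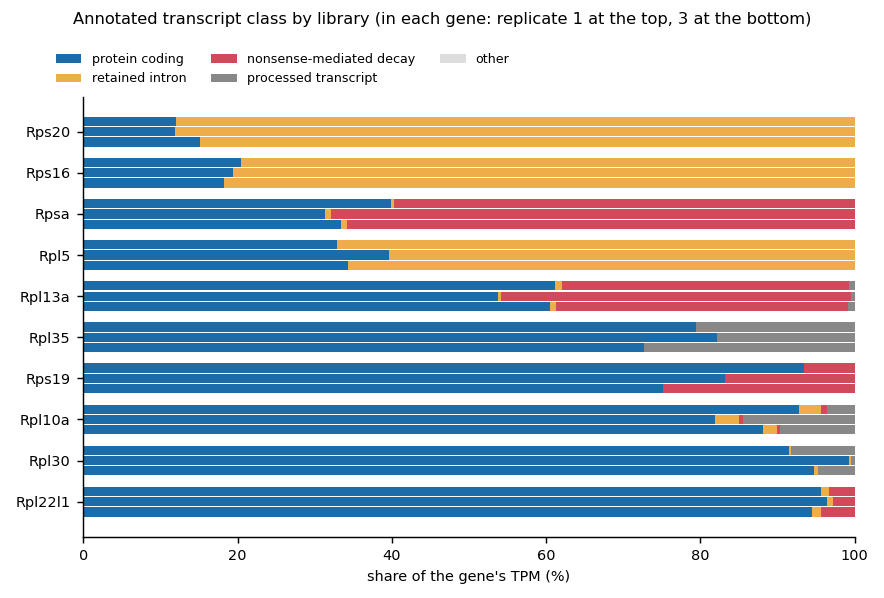
Share (%) of each gene's TPM by annotated class of transcript, with 1 bar per library (replicate 1 at the top of each gene), for 10 members with a low protein-coding share. Intron-retaining models dominate in Rps20, Rps16 and Rpl5, and models annotated as decay targets in Rpsa.

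A single transcript usually carried a member, with a median share of 97.3%. Of 77 members with several transcripts, the leading transcript differed between libraries in 4, against 13.7% of detected protein-coding genes, and between quantifications in 5, against 10.1%. Without replicate 1 the count between libraries was 2. The 4 were Rpl10, Rplp2, Rpl21 and Rpl31, a protein near the exit of the nascent chain. In Rpl10 the transcripts Rpl10-211 and Rpl10-201, both coding, had 40.0 and 47.3% in replicate 1 but 59.2 and 28.8% in replicate 2. In Rpl21, Rpl21-202 led in replicate 1 with 53.6% and Rpl21-201 in replicates 2 and 3 with 84.3 and 80.5%. In Rplp2, Rplp2-201 had 60.9, 41.6 and 57.1% in replicates 1, 2 and 3. Rpl31 was split over Rpl31-205, with 36.2, 44.4 and 43.6%, and Rpl31-201, with 33.9, 37.6 and 44.7%. Rpl41, Rps15a, Rps16, Rpl21 and Rpl5 had different leading transcripts in the 2 quantifications; in Rpl41, Rpl41-203 had 964 TPM in the first and 184 TPM in the second, where Rpl41-201 led with 908 TPM. Rps24, the most abundant member, had 89.6 ± 0.70% on Rps24-201.

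In TPM of the first quantification, levels differed little between libraries, although by more than counting error in most members. Counts scaled by edgeR's TMM factors, which even out depth, were compared over the 3 libraries by chi-square, with Benjamini-Hochberg adjustment at 0.05 over all genes averaging 10 counts or more. This called 71 of 80 members, against 70.9% of 12414 genes, which is the background share. The test calls genes of high count more readily, and members have high counts. Among genes averaging 100 counts or more it called 71 of 79 members, against 80.7% of such genes. Among the 9 not called were Rps14, Rpl35a, Rpl36, Rps13, Rps26, Rpl22, Rpl12 and Rpl39l. Called differences were small: 0 of 80 members were 2-fold apart between their highest and lowest library, against 18.8% of genes, and 10 were 1.5-fold apart, against 42.1%. These shares include genes of low count, whose levels are less exact. Among genes averaging 100 counts or more, 0 of 79 members were 2-fold apart, against 8.30% of such genes. The median coefficient of variation was 9.11% over members and 12.2% over 2433 other genes with mean counts between 1644 and 11780, a range that holds most core members. It was 9.87% when copies were added to each member, and 15.5% over members in the second quantification. There 3 members were 2-fold apart, Rps27l, Rpl15 and Rpl5.

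Of the 80 members tested, those that varied most were Rps27l, with a coefficient of variation of 36.9%, Rpl39l with 30.8%, Rps20 with 25.8%, Rpl3 with 24.4%, Rpl15 with 23.1%, Rps18 with 22.8%, Rpsa with 22.6% and Rps2 with 22.2%. Of these 8, Rps20 alone was highest in replicate 1, with 456, 283 and 320 TPM in replicates 1, 2 and 3. The others were highest in replicate 2: Rpl3 had 227, 364 and 270 TPM, Rpl15 326, 511 and 389 TPM, Rps18 455, 715 and 555 TPM, and Rps2 422, 657 and 519 TPM. At the other end, Rpl29 had 483, 483 and 491 TPM and Rps27a 594, 603 and 593 TPM.

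Most members had their lowest TPM in replicate 1. In TPM, 9, 44 and 27 of the 80 were highest in replicates 1, 2 and 3, against 30.7, 45.2 and 24.2% of all genes tested, and 54, 18 and 8 were lowest in them, against 41.3, 32.1 and 26.5%. The median log2 deviation from a gene's own mean was -0.09, 0.08 and 0.02 over members in replicates 1, 2 and 3, against -0.04, 0.05 and -0.01 over all genes tested. With TMM-scaled counts in place of TPM, which leave out effective length, 30, 29 and 21 members were highest in replicates 1, 2 and 3, against 35.5, 39.1 and 25.4% of all genes tested. In the second quantification 9, 66 and 5 members were highest, against 16.7, 61.4 and 21.9% of all genes tested. Fragments averaged 259, 289 and 287 bases in replicates 1, 2 and 3, as read from the lengths of the first quantification, against 262, 243 and 241 bases from those of the second. Replicate 1, lowest in members by TPM, thus stood apart in both, in opposite directions. The neutrophil markers summed to 419.6 TPM in replicate 2, against 22.9 and 21.4 TPM in replicates 1 and 3. The members' sum was 46509, 52014 and 51545 TPM in replicates 1, 2 and 3, so that replicates 2 and 3 were close. The part of fragment length and of other cells in these differences was not tested.

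**Figure D5:**
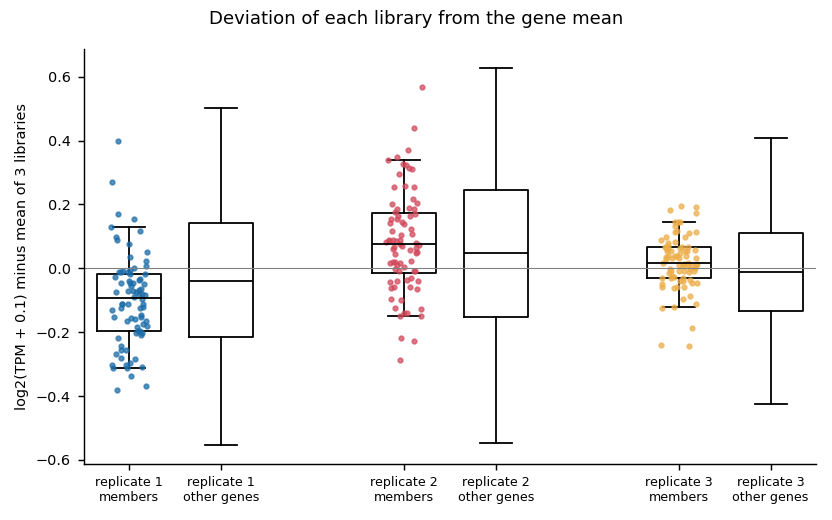
Deviation of log2(TPM + 0.1) from the gene's mean over 3 libraries, for members (points and left box of each pair) and for the other genes tested (right box); boxes span the quartiles, lines in them mark medians and whiskers reach the 5th and 95th percentiles. Members sit below their mean in replicate 1, with a median of -0.09, and above it in replicate 2, with a median of 0.08.

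Genes that work with the ribosome ranged from far more to far less abundant than its proteins. The 15 genes of a list of translation factors and other TOP mRNAs, among them the chaperones Npm1 and Nap1l1, were all detected and together reached 8001 ± 682 TPM (SD, n = 3). They were led by Eef1a1, which delivers aminoacyl-tRNA, with 3207 ± 428 TPM, and Tpt1, a TOP mRNA, with 2634 ± 127 TPM. At the low end were Eif4b, a helicase cofactor, with 39.2 ± 4.50 TPM and Eef1d, an exchange-factor subunit, with 43.7 ± 13.4 TPM. Pabpc1, the poly(A)-binding protein, had 486 ± 46.2 TPM. Of this list, 12 of 15 were highest in replicate 2 by TPM, against 45.2% of all genes tested. Its sum was 7284, 8641 and 8077 TPM in replicates 1, 2 and 3.

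Ribosome assembly factors were far lower. Of 24 listed, 19 were detected. The median level of the list was 5.57 TPM, and its genes together reached 192 ± 43.2 TPM (SD, n = 3). Ncl, nucleolin, led with 44.5 ± 6.71 TPM, followed by Pes1, a large-subunit assembly factor, with 19.9 ± 5.77 TPM and Fbl, the methyltransferase fibrillarin, with 17.5 ± 7.53 TPM; Rrp1b and Mdn1 were at 0.597 ± 0.231 and 0.820 ± 0.240 TPM. Of the 24, 21 were highest in replicate 2 by TPM, against 45.2% of all genes tested. Counts on the TMM scale are not given for this list or for the translation factors. Of 14 genes for transcription of ribosomal RNA, 12 were detected, with Polr1d at 51.7 ± 10.1 TPM and Ubtf at 34.4 ± 3.02 TPM as the highest and Polr1b at 0.480 ± 0.236 TPM as the lowest. All 14 genes of the mTOR, S6 kinase and Larp1 list were detected. Larp1, which binds TOP mRNAs, had 89.2 ± 3.47 TPM, the cap-binding protein gene Eif4e 65.8 ± 4.13 TPM, the mTOR activator gene Rheb 49.3 ± 4.54 TPM and Mtor itself 13.1 ± 1.69 TPM, while Myc and Mlst8 were lowest at 2.65 ± 0.599 and 3.40 ± 1.07 TPM. In the S6 kinase family, whose names share the Rps6k stem with the stray member Rps6kl1, 7 of 10 were detected and Rps6ka3 was highest with 66.8 ± 10.8 TPM, while Rps6kl1 had 1 read in replicate 1 and none in replicates 2 and 3 of the first quantification.

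Mitochondrial ribosomal proteins, which build the separate ribosome of that organelle, were detected in 78 of 78 cases but at a median of 17.8 TPM, against 533 TPM for the cytosolic core. Their sum was 2267 ± 384 TPM (SD, n = 3), against 50023 ± 3052 TPM for the cytosolic members. Of the 78, 65 were highest in replicate 2 and 5 in replicate 1, and the cytosolic counts were 44 and 9 of 80, against 45.2 and 30.7% of all genes tested. These counts are by TPM, and by TMM-scaled counts the cytosolic ones were 29 and 30. Mitochondrial ones on the TMM scale are not given. Genes named as ribosomal protein pseudogenes by the suffix -ps numbered 300, of which 40 were detected and 190 had no TPM in any library. They summed to 2364 ± 236 TPM in the first and 2939 ± 293 TPM in the second quantification, less than the copies found by sequence, several of which carry Gm names.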

How the data were processed

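RNA was quantified by the authors on mm10 with GENCODE M21, per the labels and deposited readme. Which programs did so is not given in the sources used here. The deposited expected counts are model-assigned, unscaled reads per gene, and the deposited TPM values come from the same transcriptome alignment. A second table per library holds the authors' alignment-free estimated counts and TPM, here summed per gene. The percent of a gene on each transcript is also deposited by the authors. Depth was 26589042 to 48356527 expected counts.

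From these values, means, SDs (n = 3), log2 ratios with a pseudocount of 0.1, and shares were computed. Expected counts were rounded and scaled with edgeR 4.0.16 TMM; genes averaging 10 counts or more entered a chi-square test, which was tested on simulated data. With 1 group, no comparison of conditions was possible. DESeq2 1.42.0 size factors were an alternative. Limits for a count of 0 use 3 counts. Coding sequences of paralogs were aligned with Biopython 1.88 in place of the planned proteins, which were not used here. Members and lists were chosen with earlier results of these data known. Named genes are the 10 highest and lowest, paralog pairs, stalk and extraribosomal lists, the 8 most variable, the 8 most discordant, the 8 of lowest coding share, and the ends of each related list; a few that the rule names are not reported here.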

Additional observations from a re-analysis of the deposited data

How the results depend on the processing

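Of 77 alternatives, 54 values stayed within the spread between libraries or, for counts, within 1.5 times. Only the small minus large difference could change sign, and it stayed positive in each of its alternatives. In the second quantification the members' sum was 34971 TPM, their median 366 TPM, the SD of log2 levels between members 1.5, the small minus large difference 0.23, the median coefficient of variation 15.5%, and 3 members were 2-fold apart. Adding near-identical copies, chosen after the data were seen, gave a sum of 57105 TPM, a median of 569 TPM, an SD of 1.04, a subunit difference of 0.19 (0.14 in the second quantification) and 3 members apart between quantifications. With means in place of medians the subunit difference was 0.56. Rescaled without mitochondrial and ribosomal RNA genes, the sum was 54514 TPM. With no count minimum 1 member was 2-fold apart. The median coefficient of variation was 7.53% on TMM-scaled and 8.01% on DESeq2-scaled counts, where 29 and 29 members were highest in replicate 2 instead of 44, and 30 and 26 in replicate 1 instead of 9, so that on TMM-scaled counts replicate 1 led. Leaving out each library in turn moved the median coefficient of variation between 6.09 and 10.5%, and the members with a differing leading transcript between 2 and 3. The causes were not tested. No paired analysis was possible because there is 1 group. Depth limits Rpl39l, Rpl3l, Rpl10l and Rps6kl1, and 3 libraries limit every SD.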
